A study of Homo sapiens with 9 samples.

Results

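The SLC12 cation-chloride cotransporters were followed in SKMEL28 cells, an established human melanoma line, as p16 and then ATR were knocked down with short hairpin RNAs. The 6 members were SLC12A2, SLC12A4, SLC12A5, SLC12A7, SLC12A8 and SLC12A9, found by gene symbol among 48162 genes in the deposited count and FPKM tables. SLC12A7 was chosen by its measured fall in shp16 against shCont cells, so its values in both comparisons with shCont are given as a description with no test.

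RNA sequencing measured mRNA in 9 libraries, 3 for each of 3 groups. The shCont cells carried a lentiviral hairpin against GFP, the shp16 cells a hairpin against p16, and the shp16+shATR cells hairpins against both p16 and ATR. All cells were grown in DMEM with fetal bovine serum and selected with puromycin. The labels do not say whether the 3 libraries of each group came from separate cultures, so every p-value below measures only the spread between these libraries, which may be technical. For a panel of mRNA levels, the study describes a single experiment with 3 technical replicates, without naming the assay. Which of the study's ATR hairpins was sequenced is not given in the sources used here.

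SLC12 proteins carry chloride across membranes together with sodium, potassium or both. The NKCC branch usually loads cells with chloride, and the KCC branch, the potassium-chloride cotransporters, usually removes potassium and chloride and helps swollen cells shrink. WNK kinases, acting through the kinases encoded by STK39 and OXSR1, switch the first branch on and the second off when cells shrink or chloride falls.

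Total counts ran from 17314662 to 23588174 per library. Replicate 1 of shCont and replicate 1 of shp16 stood apart: the chi-square per degree of freedom of their counts against the other libraries of their group was 37.2 to 83.4, against 1.94 to 9.66 for every other pair within a group. No 2 libraries were identical. The 8 melanocyte markers were each at 18.5 FPKM or more in every library, and their summed level ranged from 2558 to 5455 FPKM. In shp16 against shCont edgeR called 2 of the 8, and 14.8% of all genes. S100B had a log2 fold change of -0.68 (edgeR adjusted p = 0.013) and TYRP1 -0.43 (edgeR adjusted p = 0.0228), the latter not called by limma. The same 2 were called in shp16+shATR against shp16, and 6.22% of all genes. S100B was at 0.67 (edgeR adjusted p = 0.0254) and TYRP1 at -0.88 (edgeR adjusted p = 0.0014). Markers of other cells summed to 4.22 to 7.57 FPKM for shCont, 13.0 to 17.9 for shp16 and 12.3 to 13.5 for shp16+shATR, with PTPRC and CD3E at 0 in all libraries. Of these markers 4 could be tested, and 2 were called higher in shp16 against shCont. KRT18 rose by 1.42 on the log2 scale (edgeR adjusted p = 0.00183), and KRT5 was at 0 in shCont (edgeR adjusted p = 0.00123). The part of these markers in the results below was not tested.

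The hairpin targets were read first. CDKN2A, whose counts pool the p16 and ARF transcripts, stood at 121, 91.0 and 81.0 FPKM in shCont and at 57.1, 74.8 and 79.8 FPKM in shp16. The groups did not overlap, and the log2 fold change of -0.48 did not pass the test (edgeR adjusted p = 0.0723). It fell in shp16+shATR against shCont by 0.57 on the log2 scale (edgeR adjusted p = 0.0263). ATR, the replication stress kinase, stood at 4.84 to 4.92 FPKM in shp16+shATR and at 10.4 to 10.6 FPKM in shp16, a log2 fold change of -1.12 (SE 0.22, edgeR adjusted p = 0.0128). The shCont libraries were at 5.34, 11.8 and 11.8 FPKM, so shCont replicate 1 was near the shp16+shATR level. Against shCont the log2 fold change in shp16+shATR was -0.96 (SE 0.22, edgeR adjusted p = 0.00832).

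SLC12A7, which encodes the potassium-chloride cotransporter KCC4, lies on the minus strand of chromosome 5 at chr5:1050499-1112150 in the deposited coordinates, which are those of GRCh37. SLC12A9, a less studied relative first described as a partner of NKCC1, lies on the plus strand at chr7:100424442-100464631. The results below turn most on these 2 genes, so the 250 bases before a start of each are printed, from the RefSeq promoter table in GRCh38.p14, each in the direction of its gene. The SLC12A7 stretch is chr5:1112064-1112313 on the minus strand. The SLC12A9 stretch is chr7:100852463-100852712 on the plus strand, before the second of 2 starts in the table. It lies downstream of the window of the first start, chr7:100826619-100826868. Which start these cells use was not tested. Capitals mark CACGTG, a palindromic E-box that was picked after the sequences had been read.
SLC12A7: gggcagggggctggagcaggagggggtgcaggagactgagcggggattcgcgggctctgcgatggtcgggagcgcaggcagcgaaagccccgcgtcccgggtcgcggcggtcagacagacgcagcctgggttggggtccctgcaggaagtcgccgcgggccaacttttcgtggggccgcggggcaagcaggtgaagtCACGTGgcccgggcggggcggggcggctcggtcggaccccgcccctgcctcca
SLC12A9: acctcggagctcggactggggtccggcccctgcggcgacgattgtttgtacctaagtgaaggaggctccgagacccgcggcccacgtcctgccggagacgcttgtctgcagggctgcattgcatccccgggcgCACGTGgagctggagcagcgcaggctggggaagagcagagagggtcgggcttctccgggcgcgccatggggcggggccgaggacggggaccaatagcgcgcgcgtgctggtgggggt
CACGTG begins 53 bases before the SLC12A7 start and 117 bases before this SLC12A9 start. The same letters occurred in 6.34% of 35116 windows of this length over all genes, and not in the windows of the other 4 members or before the other SLC12A9 start. The SLC12A7 window held 28 CG pairs against a median of 11 over all windows. TTTCGCGC or TTTGGCGC, the usual forms of an E2F site, searched on both strands, occurred in 0.968% of all windows and in none of the members' windows. A match is a description of letters only.

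Levels between genes were compared per length, in FPKM (fragments per kilobase of gene model and 1e6 counts). In shCont cells the order of mean FPKM was SLC12A9 at 11.3 ± 1.18 (SD, n = 3), SLC12A4 at 8.85 ± 0.736, SLC12A2 at 8.20 ± 2.31, SLC12A7 at 5.10 ± 0.0338 and SLC12A8 at 0.599 ± 0.0845. Only SLC12A4 and SLC12A2 overlapped among these neighbours. In shp16 cells SLC12A7 was the lowest of these 5, at 0.227 ± 0.0176 FPKM, below SLC12A8 at 0.843 ± 0.153 with no overlap. In shp16+shATR cells the top of the order changed: SLC12A2 at 11.5 ± 0.700 and SLC12A4 at 10.2 ± 0.561 overlapped each other and both lay above SLC12A9 at 7.49 ± 0.756.

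**Figure D1:**
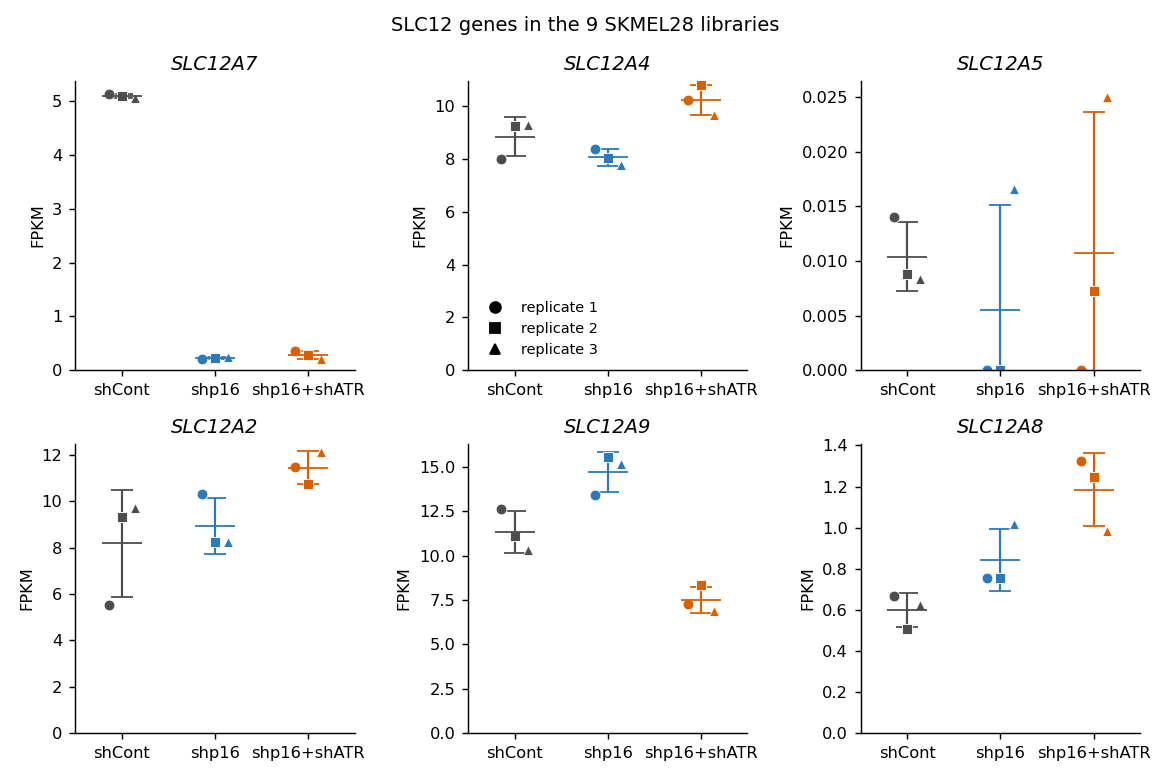
FPKM (y axis, from 0, with its own scale in each panel) of the 6 members in each library, by group (x axis). Points are libraries, horizontal lines are group means and bars are 1 SD, which in the SLC12A5 panel run below the axis. SLC12A7 is near 5.10 in shCont and at most 0.351 in the other 6 libraries, and SLC12A9 is highest in shp16 and lowest in shp16+shATR.

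The members at the bottom of the range were barely counted. SLC12A5 encodes KCC2, the neuronal potassium-chloride cotransporter, and had 2, 1 and 1 counts in shCont, 0, 0 and 2 in shp16, and 0, 1 and 3 in shp16+shATR. It did not pass the filter on low counts and was not tested. A count of 3 corresponds to 0.127 to 0.173 CPM (counts scaled to a library size of 1e6) in these libraries, so SLC12A5 was at or below that floor in each of them. The kidney cotransporter genes outside the member list were as sparse: SLC12A1, encoding NKCC2, had 0 to 4 counts per library, and SLC12A3, encoding the thiazide-sensitive sodium-chloride cotransporter, had 6 counts in shCont replicate 3, 1 in shCont replicate 2 and 0 in the other 7 libraries.

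SLC12A7 was at 5.13, 5.10 and 5.06 FPKM in the shCont libraries, at 0.213, 0.221 and 0.247 FPKM in shp16, and at 0.351, 0.275 and 0.201 FPKM in shp16+shATR. The 3 shCont libraries were close to each other, although replicate 1 stood apart over all genes. Raw counts were 638, 504 and 530 in shCont, 23, 24 and 26 in shp16, and 32, 33 and 21 in shp16+shATR.

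Mean CPM of SLC12A7 was 22.4-fold lower in shp16 than in shCont, a log2 fold change of -4.48 (SE 0.18), the 18th lowest of 15776 genes tested. In shp16+shATR it was 18.5-fold lower than in shCont, with a log2 fold change of -4.22 (SE 0.18). These values describe the selection, and both contrasts use the same shCont libraries. Each shCont library was above each library of the other groups. With both libraries that stood apart left out, the values were -4.44 and -4.19.

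Adding the ATR hairpin to p16 knockdown left SLC12A7 low. The shp16 and shp16+shATR libraries overlapped, and the log2 fold change of 0.26 (SE 0.22, 95% interval -0.22 to 0.74, edgeR adjusted p = 0.572) did not pass the test. The test uses the shp16 libraries that also served to choose the gene. SLC12A7 had 21 to 33 counts per library here, and the interval covers both a small fall and a rise of up to 0.74.

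SLC12A4, encoding the widely expressed KCC1, was at 8.00, 9.24 and 9.31 FPKM in shCont, 8.40, 8.04 and 7.76 in shp16, and 10.2, 10.8 and 9.68 in shp16+shATR. The shCont and shp16 libraries overlapped, and the log2 fold change was -0.12 (95% interval -0.35 to 0.11, edgeR adjusted p = 0.488). Without shCont replicate 1 and shp16 replicate 1 it was -0.24, with an edgeR adjusted p of 0.0213. That fit was chosen after seeing the data and called 32.7% of all genes. All 3 shp16+shATR libraries lay above both other groups, by a log2 fold change of 0.33 over shp16 (SE 0.11, edgeR adjusted p = 0.0876). Without shCont replicate 1, which carried much of the spread, that value was 0.34 with an edgeR adjusted p of 0.00912, and DESeq2 gave an adjusted p of 0.0355.

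SLC12A2 encodes NKCC1, the sodium-potassium-chloride importer of most cell types. It was at 5.55, 9.31 and 9.74 FPKM in shCont, 10.3, 8.25 and 8.23 in shp16, and 11.5, 10.8 and 12.2 in shp16+shATR. The libraries that departed from their group were shCont replicate 1 and shp16 replicate 1, in opposite directions. Between shCont and shp16 the log2 fold change was 0.15 (95% interval -0.26 to 0.56, edgeR adjusted p = 0.636), and it turned to -0.22 without those 2 libraries (edgeR adjusted p = 0.0367). In shp16+shATR it was 0.35 higher than in shp16 (SE 0.19, edgeR adjusted p = 0.336) and 0.50 higher than in shCont (SE 0.19, edgeR adjusted p = 0.0759). The latter passed with DESeq2, at an adjusted p of 0.0483. Without the same 2 libraries these became 0.51 (edgeR adjusted p = 2.17e-05) and 0.29 (edgeR adjusted p = 0.00194). Leaving both out was chosen after seeing the data. That fit called 32.7% of all genes in shp16 against shCont, 26.7% in shp16+shATR against shp16 and 44.3% in shp16+shATR against shCont.

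SLC12A9 was the 1 member that passed the test when the ATR hairpin was added. It was at 12.6, 11.1 and 10.3 FPKM in shCont, 13.4, 15.5 and 15.2 in shp16, and 7.27, 8.34 and 6.87 in shp16+shATR. The 3 groups did not overlap one another. Mean CPM was 1.97-fold lower in shp16+shATR than in shp16, a log2 fold change of -0.98 (SE 0.12, edgeR adjusted p = 0.00127), the 188th lowest of 15776 genes. Over the 19 alternative settings this change ran from -1.05 to -0.89, with adjusted p from 4.4e-11 to 0.0143.

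Against shCont, SLC12A9 also fell in shp16+shATR cells, with a log2 fold change of -0.60 (SE 0.12, edgeR adjusted p = 0.00406). The increase from shCont to shp16 was 0.38 (SE 0.12, edgeR adjusted p = 0.0558) and did not pass. Without shCont replicate 1 it was 0.49 with an edgeR adjusted p of 0.00104, and DESeq2 on all libraries gave an adjusted p of 0.0223.

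Part of the SLC12A9 locus is shared with other genes. EPHB4, a receptor tyrosine kinase gene on the opposite strand, overlaps it over 680 bases and had 1028 to 1865 counts per library. EPHB4 rose in shp16 against shCont by 0.71 on the log2 scale (edgeR adjusted p = 0.0011), and its log2 fold change in shp16+shATR against shp16 was -0.23 (edgeR adjusted p = 0.260). RP11-126L15.4, also on the opposite strand, overlaps 15303 bases and had 6 to 31 counts per library. Whether strand was used in counting is not given in the sources used here, and the part of these reads in the SLC12A9 values was not tested.

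SLC12A8 encodes a distant relative whose substrate is debated. It was at 0.669, 0.505 and 0.622 FPKM in shCont, 0.755, 0.754 and 1.02 in shp16, and 1.33, 1.25 and 0.983 in shp16+shATR. The shCont libraries were below all others. SLC12A8 rose 1.97-fold in mean CPM in shp16+shATR against shCont, a log2 fold change of 0.97 (SE 0.22, edgeR adjusted p = 0.00815), and passed under all 19 alternative settings, at adjusted p of 0.00101 to 0.0378. The separate steps were 0.49 for shp16 against shCont (edgeR adjusted p = 0.172) and 0.49 for shp16+shATR against shp16 (edgeR adjusted p = 0.232), and neither passed. SLC12A8 had 33 to 99 counts per library and shares 53617 bases with ZNF148 on the same strand, which had 1186 to 2093. SLC12A4 likewise shares 658 bases with LCAT, which had 36 to 105.

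**Figure D2:**
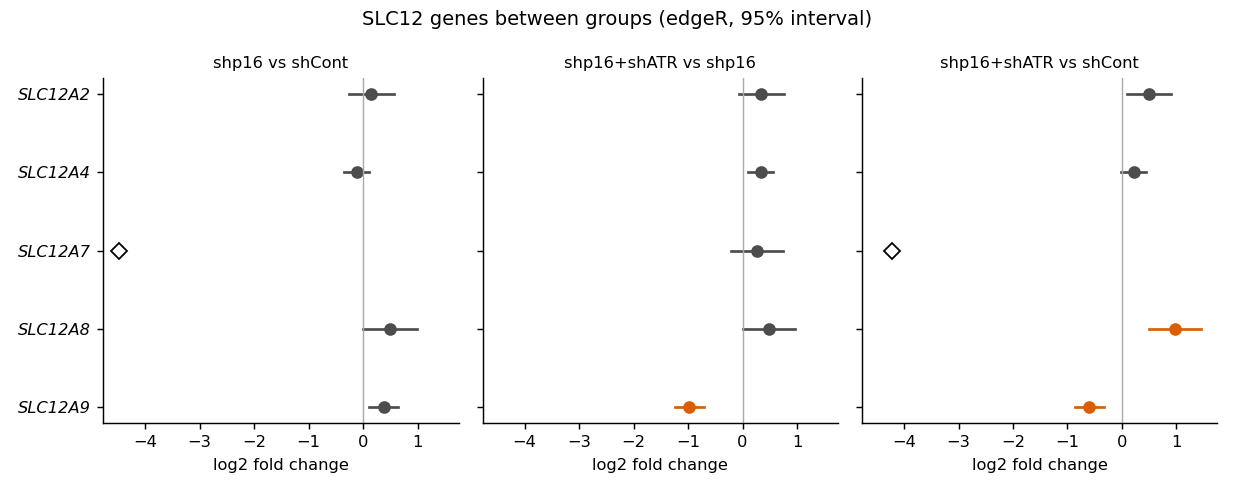
Log2 fold changes from edgeR (x axis) with 95% intervals for the 5 members that passed the filter on low counts (y axis), in the 3 comparisons. Orange marks an adjusted p below 0.05, and open diamonds mark SLC12A7 where it is a description with no interval or test. SLC12A9 at -0.98 is the single tested member past the threshold in shp16+shATR against shp16.

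Counted together, 5 of the 6 members passed the filter, each with at least 10 counts in every library. In shp16 against shCont, 0 of the 4 members tested there passed by edgeR, where 14.8% of all tested genes did (7.23% higher and 7.59% lower). At an unadjusted p below 0.05 there was 1, SLC12A9, which DESeq2 also called, and limma called 0. Of all genes DESeq2 called 18.6% there and limma 12.9%. This contrast also chose SLC12A7, and nothing is read from the count. With the ATR hairpin added to shp16, 1 of 5 members passed, SLC12A9, lower, where 6.22% of all genes did (2.73% higher and 3.49% lower). At an unadjusted p below 0.05 there were 3, DESeq2 called 2 (9.56% of all genes) and limma called 1 (5.95%). In shp16+shATR against shCont, 2 of 4 passed, SLC12A8 higher and SLC12A9 lower, where 23.6% of all genes did (10.9% higher and 12.7% lower). At an unadjusted p below 0.05 there were 3, DESeq2 called 3 (26.5% of all genes) and limma called 2 (22.2%).

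Median log2 fold changes over these members were 0.26, 0.33 and 0.36 in the 3 comparisons in that order, beside -0.02, 0.00 and -0.02 over all genes tested. The 2 groups did not overlap in CPM for 2 of 4 members in the first comparison, where 33.6% of all genes did not overlap. The count was 3 of 5 in the second, where the share of all genes was 37.7%, and 4 of 4 in the third, where it was 41.5%.

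The genes around SLC12A7 were examined next, as the 5 tested genes on each side in order of start position along chromosome 5. In shp16 against shCont, 2 of these 10 fell and 0 rose, where 7.59% of all genes tested fell and 7.23% rose. ZDHHC11 and ZDHHC11B, encoding palmitoyltransferases, fell with log2 fold changes of -2.24 (SE 0.31, edgeR adjusted p = 0.000667) and -2.19 (SE 0.29, edgeR adjusted p = 0.000447). Both are near-identical copies with overlapping gene models, so how their reads were split is uncertain and the 2 calls may not be independent. The genes nearest on that side lay between them and SLC12A7: TRIP13, a mitotic checkpoint ATPase gene, had a log2 fold change of 0.02 (95% interval -0.23 to 0.27), and BRD9, a chromatin remodelling subunit gene, had -0.02 (95% interval -0.23 to 0.19).

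On the other side, CLPTM1L, encoding a lipid scramblase-like membrane protein, had -0.32 (SE 0.10, edgeR adjusted p = 0.0626), and LPCAT1, a phospholipid remodelling enzyme gene, had 0.24 (SE 0.09, edgeR adjusted p = 0.111). The pseudogene SDHAP3 had -1.24 (SE 0.40, edgeR adjusted p = 0.0602). The median of the 10 neighbours was -0.27. TPPP, at chr5:660883-693510, starts beyond these 10 and was not counted, although it ends nearer to SLC12A7 than the outermost of them. In shp16 against shCont TPPP had a log2 fold change of -1.52 (SE 0.10, edgeR adjusted p = 2.87e-06). TRIP13 fell by 0.48 in shp16+shATR against shp16 (edgeR adjusted p = 0.0323).

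**Figure D3:**
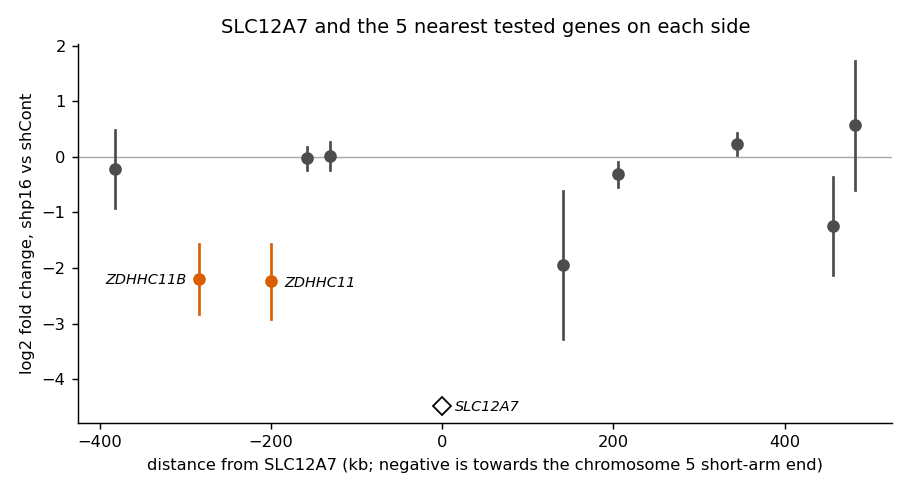
Log2 fold change from edgeR in shp16 against shCont (y axis) with 95% intervals, against distance from SLC12A7 in kilobases (x axis). SLC12A7 and 5 tested genes on each side, taken in order of start position, are shown. Orange marks an adjusted p below 0.05 and the open diamond is SLC12A7, given with no test. The 2 nearest genes towards the chromosome end, TRIP13 and BRD9, lie at 0.02 and -0.02, and ZDHHC11 and ZDHHC11B beyond them lie at -2.24 and -2.19.

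Likeness to SLC12A7 was ranked by Pearson correlation of log2 CPM over the 9 libraries, among 10737 genes with a mean of at least 5 CPM. The 5 highest were UBE2E2, a ubiquitin-conjugating enzyme gene (r = 0.993), IL8, the neutrophil chemokine (r = 0.992), HIBCH, a valine catabolism enzyme gene (r = 0.991), TPPP, a tubulin polymerization protein gene (r = 0.991), and KIAA1456 (r = 0.990). All 5 were high in shCont and low in the other groups, and these points share the same 3 group levels. Mean CPM of UBE2E2 was 10.7 for shCont, 3.97 for shp16 and 4.49 for shp16+shATR. TPPP was at 73.6, 25.7 and 28.1 CPM in that order, and also lies on chromosome 5, at chr5:660883-693510, beyond ZDHHC11B. The correlation of SLC12A7 with the other members was -0.51 for SLC12A2, -0.11 for SLC12A4 and 0.09 for SLC12A9.

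The WNK kinase module controls NKCC and KCC activity by phosphorylation. Of its 11 genes 10 were tested. In shp16 against shCont, where 14.8% of all genes passed, 0 rose and 1 fell, CAB39L, encoding a scaffold of the STK39 and OXSR1 kinases, with a log2 fold change of -0.65 (edgeR adjusted p = 0.0215). WNK1 was at 0.48 (edgeR adjusted p = 0.164), WNK3 at -0.06, WNK4 at 0.38, OXSR1 at 0.31 (edgeR adjusted p = 0.128), STK39 at -0.14 and CAB39 at -0.04. The genes of the ubiquitin ligase that degrades WNK kinases were at -0.31 for CUL3 (edgeR adjusted p = 0.0814), -0.02 for KLHL2 and -0.21 for KLHL3. The median over the list was -0.05.

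From shp16 to shp16+shATR, 0 of the 10 passed by edgeR, 2 were at an unadjusted p below 0.05, DESeq2 called 1, WNK4, and limma called 0. The shares of all genes called in that comparison were 6.22% by edgeR, 9.56% by DESeq2 and 5.95% by limma. The edgeR values there were 0.92 for WNK4 (SE 0.31, adjusted p = 0.107) and -0.35 for OXSR1 (SE 0.13, adjusted p = 0.152). WNK4 passed in shp16+shATR against shCont, higher by 1.30 (SE 0.31, edgeR adjusted p = 0.0111). Without shCont replicate 1, edgeR called WNK4 higher and OXSR1 lower in shp16+shATR against shp16, in a fit that called 19.9% of all genes. With both libraries that stood apart left out, 3 of the 10 passed with p16 knockdown alone (32.7% of all genes), 3 when the ATR hairpin was added to it (26.7%) and 6 with both hairpins against control (44.3%).

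The volume-regulated anion channel, formed by LRRC8 proteins, releases chloride and small organic molecules from swollen cells. All 5 of its genes were tested, and in shp16 against shCont 2 rose and 0 fell, where 14.8% of all genes passed. LRRC8A, the obligatory subunit, was at 6.56, 7.11 and 6.89 FPKM in shCont, 10.5, 10.8 and 11.8 in shp16, and 7.50, 8.39 and 7.75 in shp16+shATR, with no overlap between groups. It rose by 0.70 in shp16 (SE 0.10, edgeR adjusted p = 0.000651) and fell by 0.49 from shp16 to shp16+shATR (SE 0.10, edgeR adjusted p = 0.0122). LRRC8D, a subunit that widens what the channel passes, rose by 0.35 in shp16 (edgeR adjusted p = 0.0347) and stood at 0.21 in shp16+shATR against shp16 (edgeR adjusted p = 0.272). The list median was 0.35 in the first comparison and -0.25 in the second.

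Among 5 tested genes of the sodium-potassium pump, which maintains the gradients that SLC12 proteins use, 1 rose and 3 fell in shp16 against shCont. In that comparison 14.8% of all genes passed. ATP1B1, a beta subunit, rose by 0.60 (edgeR adjusted p = 0.0118). ATP1B3, another beta subunit gene, was at -0.01 (edgeR adjusted p = 0.969). The 3 that fell encode small regulatory FXYD proteins: FXYD3 at -2.24 (edgeR adjusted p = 2.77e-05), FXYD5 at -0.75 (edgeR adjusted p = 0.0391) and FXYD6 at -1.97 (edgeR adjusted p = 0.02). FXYD6 had only 9, 11 and 3 counts in shp16, against 42, 16 and 36 in shCont. FXYD5 was not called by limma on log2(FPKM + 1). In the step from shp16 to shp16+shATR, 0 of the 5 passed by edgeR, DESeq2 or limma, and 0 were at an unadjusted p below 0.05. Over all genes edgeR called 6.22% there, DESeq2 9.56% and limma 5.95%.

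Sodium-proton and bicarbonate exchangers, which set cell pH and load sodium or chloride, had 9 of 11 genes tested. In shp16 against shCont, where 14.8% of all genes passed, 1 rose, the organellar exchanger gene SLC9A7, by 0.77 (edgeR adjusted p = 0.0248). That rise was not called with both libraries that stood apart left out. The 2 that fell were SLC4A3, a chloride-bicarbonate exchanger gene, at -0.50 (edgeR adjusted p = 0.0208), and SLC4A4, a sodium-bicarbonate cotransporter gene, at -1.61 (edgeR adjusted p = 0.00172). SLC9A7 rose again in shp16+shATR against shp16, by 0.79 (edgeR adjusted p = 0.0306). It was the 1 call of this list there, where 6.22% of all genes passed.

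The CLC chloride channels and exchangers had 7 of 10 genes tested. In shp16 against shCont 1 rose and 1 fell: CLCN6, a late endosomal exchanger gene, at 0.48 (edgeR adjusted p = 0.0483), and CLCN4, also an endosomal exchanger gene, at -1.65 (edgeR adjusted p = 0.00313). CLCN6 was not called there by limma on log2(FPKM + 1). Between shp16 and shp16+shATR, 0 of the 7 passed by edgeR, DESeq2 or limma, and 1 was at an unadjusted p below 0.05. Of all genes 6.22%, 9.56% and 5.95% passed by these tools in that order. In the first comparison the WNK module had 1 call among 10 genes and the anion channel 2 among 5. The pump had 4 among 5, the exchangers 3 among 9 and the CLC list 2 among 7. All but the WNK module lay above the 14.8% of all genes. In the second comparison the anion channel and the exchangers had 1 call each and the other lists 0, where 6.22% of all genes passed. The lists were chosen with earlier results of these data known, so nothing is read from these counts. Without shCont replicate 1 and shp16 replicate 1, edgeR called 32.7% of all genes in the first comparison and 26.7% in the second.

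**Figure D4:**
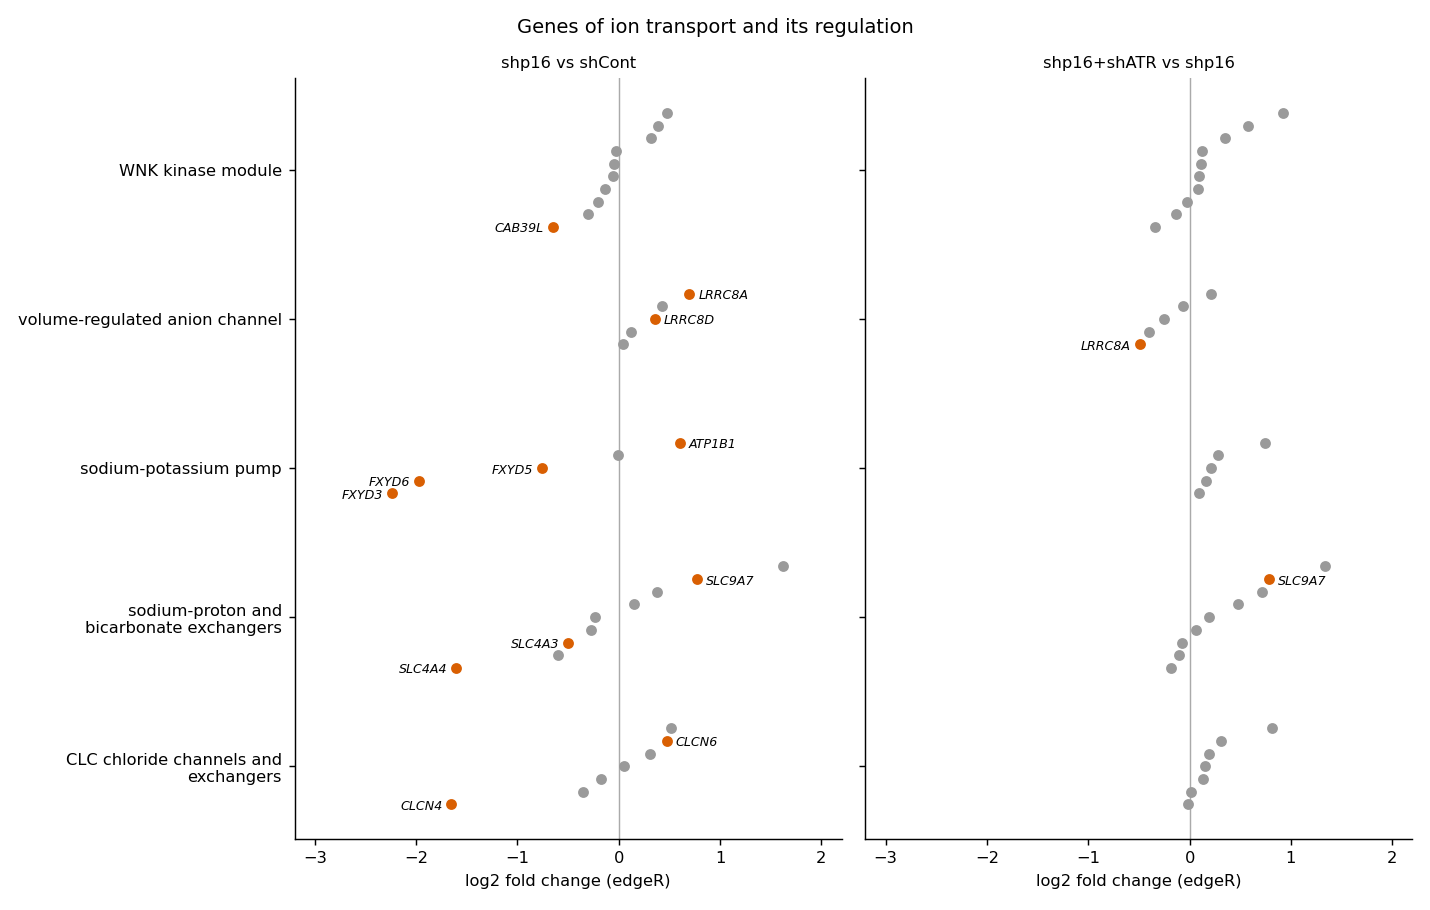
Log2 fold changes from edgeR (x axis) of the tested genes of 5 lists of ion transport genes and their regulators (y axis), for the 2 comparisons that add 1 hairpin, shp16 against shCont (left) and shp16+shATR against shp16 (right). Each point is a gene, and named orange points have an adjusted p below 0.05. LRRC8A lies at 0.70 on the left and at -0.49 on the right.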

How the data were processed

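The authors deposited raw read counts per gene, not normalized, and FPKM per gene, which equal the count divided by gene length and by the library total. Library preparation, sequencing and bioinformatics were done by a service provider. The submitters' processing notes name STAR 2.6.1, DESeq2 and GRCh38, while the deposited coordinates are those of GRCh37. The counting program is not given in the sources used here. The 3 shp16+shATR count columns share 1 name and were numbered by the FPKM column each one equals, and 0 columns were left out.

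Members and lists were chosen with earlier results of these data known. Genes named are the members, SLC12A1 and SLC12A3, the hairpin targets, the called genes of each list, ATP1B3 and all WNK module genes. The 5 tested neighbours on each side of SLC12A7 and the 5 genes most like it were also taken (not every neighbour is described). Counts were filtered by filterByExpr, scaled by TMM and fitted over all 9 libraries with edgeR 4.0.16 (R 4.3.3) quasi-likelihood tests. P-values were adjusted by the Benjamini-Hochberg method over 15776 genes, with calls at 0.05. Alternatives used DESeq2 1.42.0, limma 3.58.1 on log2(FPKM + 1) and log2(FPKM + 0.1), other scalings and filters, the replicate number as a block, and libraries left out. On counts simulated for shp16 against shCont, edgeR recovered 90.5% of 200 changed genes among 15427, and called 15 others. The changes put in were of at least 1 on the log2 scale, so recovery of smaller ones was not tested. Depth was 17314662 to 23588174 counts per library, and floors cover counting error only. Promoters of all 6 members were found in the RefSeq table. Some genes of the lists are not reported here and were left out of the list counts.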

Additional observations from a re-analysis of the deposited data

How the results depend on the processing

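Each comparison was repeated under 19 alternative settings. The SLC12 members called in shp16 against shCont, 0 in the main analysis, became 1 (SLC12A9) with a minimum of 10 counts in every library and with DESeq2, and ranged from 0 to 1 when 1 library was left out, the 1 being without shCont replicate 1. In shp16+shATR against shp16 the count of 1 became 2 (SLC12A4, SLC12A9) when only the 2 groups compared were fitted and with DESeq2, and ranged from 1 to 2 when 1 library was left out, the 2 being again without shCont replicate 1. With shCont replicate 1 and shp16 replicate 1 both left out, an alternative chosen after seeing the data, both counts became 3 (SLC12A2, SLC12A4, SLC12A9). In shp16+shATR against shCont the count of 2 became 3, with SLC12A2 added, with no filter on low counts, without shCont replicate 3, with DESeq2 and with both libraries that stood apart left out. The log2 fold change of SLC12A2 in shp16 against shCont was 0.15, ranged from -0.052 to 0.29 when 1 library was left out, and reversed to -0.052 without shCont replicate 1, to -0.016 without shp16 replicate 1 and to -0.22 without both. For SLC12A7 limma on log2(FPKM + 1) gave -2.31 and -2.26 against shCont, and on log2(FPKM + 0.1) -3.99 and -3.81, since the pseudocount is large beside its level. The cause of the other changes was not tested.

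Replicate numbers are shared between groups in the labels but did not pair the libraries: correlations of deviations between same-numbered shp16 and shp16+shATR libraries were -0.20, 0.41 and -0.47. With the replicate block the members called were 0, 1 and 2, as without it, and SLC12A9 in shp16+shATR against shp16 was -0.98 with an edgeR adjusted p of 0.00597. Over all genes the block gave 1807, 612 and 3202 calls, against 2339, 981 and 3724.

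The count of all genes called moved by more than 1.5 times with the libraries fitted. It ranged from 1344 to 4192 in shp16 against shCont, from 292 to 3223 in shp16+shATR against shp16 and from 2354 to 5395 in shp16+shATR against shCont when 1 library was left out, the highest each time without shCont replicate 1. With both libraries that stood apart left out it was 5264, 4304 and 7130. Fitting only the 2 groups gave 1186 and 2878 in the first 2 comparisons, and DESeq2 gave 1508 in the second. The number of libraries and the low counts of SLC12A7 under p16 knockdown limit what could be detected.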
